A study of Homo sapiens with 10 samples.

Results

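NRF2, the product of NFE2L2, is a transcription factor that switches on antioxidant and detoxifying genes. The 9 genes described here are NFE2L2 itself, KEAP1, which encodes its inhibitor, and 7 well-known targets, namely HMOX1, NQO1, GCLC, GCLM, TXNRD1, SRXN1 and OSGIN1. They were taken by name for their known place in the pathway, with no threshold on their values. Earlier results of these data were known when they were chosen. All 9 were found among the 20327 genes of each table by Ensembl identifier and symbol.

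The cells were wild-type hTERT RPE-1, a human retinal pigment epithelial line immortalised with telomerase, and all 10 libraries came from cells starved for 48 h in 0.1% serum. Merbarone, a catalytic inhibitor of topoisomerase II, was given at 200 µM. One experiment compared 3 libraries of cells given the drug for 30 min with 3 given the vehicle DMSO for 30 min. The other compared 2 libraries after 2 h of merbarone with 2 of untreated cells, which had received no vehicle. The labels do not say whether replicates were separate cultures, so p-values measure the spread between these libraries, which may be technical.

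In unstressed cells KEAP1 holds NRF2 in the cytoplasm and presents it to a CUL3 ubiquitin ligase for degradation. Oxidants and electrophiles modify cysteines of KEAP1, NRF2 escapes, and it binds antioxidant response elements together with a small MAF protein, while BACH1 competes for the same elements and represses HMOX1 in particular. Retinal pigment epithelium lives under strong light and high oxygen, and this pathway is one of its known defences.

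The levels used here are RPKM, the reads of a gene scaled by its length and by the size of the library. The lengths behind the deposited values were mostly those of the whole gene with introns, so a gene with long introns has a low RPKM. Read numbers were recovered from the steps between values. NFE2L2, with a length of 165103 bp behind its values, stayed near 1 RPKM on 1821 to 5735 reads per library, and GCLC, with 119630 bp, stayed under 0.2 RPKM on 174 to 810 reads. Library totals were 26633780 to 38225538 reads in the 30 min experiment and 11956652 to 13691014 in the 2 h experiment. Of 11 markers of differentiated pigment epithelium, 4 (BEST1, PMEL, OTX2 and PAX6) reached 1 RPKM in every library. MITF, among the 7 that stayed under 1 RPKM, had 830 to 2105 reads, where OTX2 had 437 to 1476. RPE65 had 2 to 19 reads and DCT had 0. The simple epithelial keratins KRT8, KRT18 and KRT7 and all 4 mesenchymal markers were above 1 RPKM throughout. CDH1, the remaining marker of simple epithelium, had only 0 to 6 reads. In such bulk samples fewer cells of a type and less RNA per cell cannot be told apart.

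Antioxidant response elements share the core TGACNNNGC. This core was searched on both strands of the RefSeq windows from 250 bases before to 50 bases after each gene's start (sequences of GRCh38.p14). Windows were found for 8 of the 9 genes, all but HMOX1. Of their 11 windows 4 held a match, in KEAP1, GCLM and TXNRD1, against 13.3% of all 35116 windows, and none of the 6 matches overlapped the AP-1 site TGACTCA. The 4 windows are shown because they hold the core, and because TXNRD1 fell at 2 h while GCLM, with the same core, was higher in both treated libraries without passing the test. Each was found at exactly 1 place in GRCh37, which gives the coordinates. Capitals mark the matches, which read as the reverse complement where they lie on the other strand. A match is a description of the letters and not a site shown to be bound.
TXNRD1 upstream start, plus strand, chr12:104609307-104609606: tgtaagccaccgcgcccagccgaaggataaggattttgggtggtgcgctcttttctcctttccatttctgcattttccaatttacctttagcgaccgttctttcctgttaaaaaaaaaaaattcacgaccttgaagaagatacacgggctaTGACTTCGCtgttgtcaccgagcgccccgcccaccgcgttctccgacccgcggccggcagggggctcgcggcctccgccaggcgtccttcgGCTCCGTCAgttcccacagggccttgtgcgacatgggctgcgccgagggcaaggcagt
TXNRD1 downstream start, plus strand, chr12:104680560-104680859: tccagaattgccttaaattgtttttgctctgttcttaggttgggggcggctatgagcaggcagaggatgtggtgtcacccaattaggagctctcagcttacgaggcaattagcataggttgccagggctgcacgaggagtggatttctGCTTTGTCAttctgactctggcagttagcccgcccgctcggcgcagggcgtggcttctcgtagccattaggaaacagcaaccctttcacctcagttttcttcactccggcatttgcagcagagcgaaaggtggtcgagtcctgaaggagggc
KEAP1 downstream start, minus strand, chr19:10613398-10613697: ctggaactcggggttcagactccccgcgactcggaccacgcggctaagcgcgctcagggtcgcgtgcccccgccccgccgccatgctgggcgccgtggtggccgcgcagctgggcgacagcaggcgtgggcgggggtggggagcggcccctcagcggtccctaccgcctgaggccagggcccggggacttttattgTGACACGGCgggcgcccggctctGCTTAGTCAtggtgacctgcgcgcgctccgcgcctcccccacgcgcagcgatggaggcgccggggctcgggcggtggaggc
GCLM, minus strand, chr1:94374937-94375236: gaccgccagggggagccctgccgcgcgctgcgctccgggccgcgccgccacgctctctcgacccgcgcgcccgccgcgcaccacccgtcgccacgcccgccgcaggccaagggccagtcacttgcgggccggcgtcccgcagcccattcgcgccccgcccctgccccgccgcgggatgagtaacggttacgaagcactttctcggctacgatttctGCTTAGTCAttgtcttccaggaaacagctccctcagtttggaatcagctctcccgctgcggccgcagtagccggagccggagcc
The upstream TXNRD1 window held 2 matches, whose first bases lay 99 and 8 bases before the start, and the downstream window held 1, at 102 bases. The KEAP1 and GCLM windows share the 9-base run GCTTAGTCA, whose first base lay 31 bases before the start in KEAP1 and 34 in GCLM. The other KEAP1 window and the windows of NFE2L2, NQO1, GCLC, SRXN1 and OSGIN1 held no match to the core. Bases outside the windows were not searched, so elements lying further away would be missed.

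The 9 genes differed widely in level. Because gene lengths with introns differ so much, the order was taken from the recovered reads, averaged over the 10 libraries. They were scaled like RPKM but by the summed exon length in a GRCh37 annotation. That annotation may not be the one behind the deposited values, and the order depends on its exons. TXNRD1, the cytosolic thioredoxin reductase, averaged 109.0 on this scale, and NQO1, a quinone reductase, averaged 108. Their ranges over libraries, 85.3 to 157 and 87.5 to 144, overlapped. SRXN1, which repairs overoxidised peroxiredoxins, followed at 37.8, above the 23.2 of KEAP1, and the ranges of these genes did not overlap. NFE2L2 at 10.2 and HMOX1, the inducible haem oxygenase, at 10.1 could not be ordered, since the HMOX1 range of 6.21 to 17.3 enclosed the NFE2L2 range of 8.61 to 12.1. GCLM and GCLC, the modifier and catalytic subunits of the enzyme that limits glutathione synthesis, averaged 4.89 and 2.33, and their ranges did not overlap. OSGIN1, an oxidative stress-induced growth inhibitor, was lowest at 1.54, with a range overlapping that of GCLC. The length behind its deposited values was 18051 bp against a span of 35022 bp in that annotation, so its place is uncertain. On the deposited RPKM scale the order was NQO1 (16.0), SRXN1 (14.1), TXNRD1 (5.44), KEAP1 (4.70), HMOX1 (1.67), GCLM (1.10), NFE2L2 (0.926), OSGIN1 (0.474) and GCLC (0.168).

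**Figure D1:**
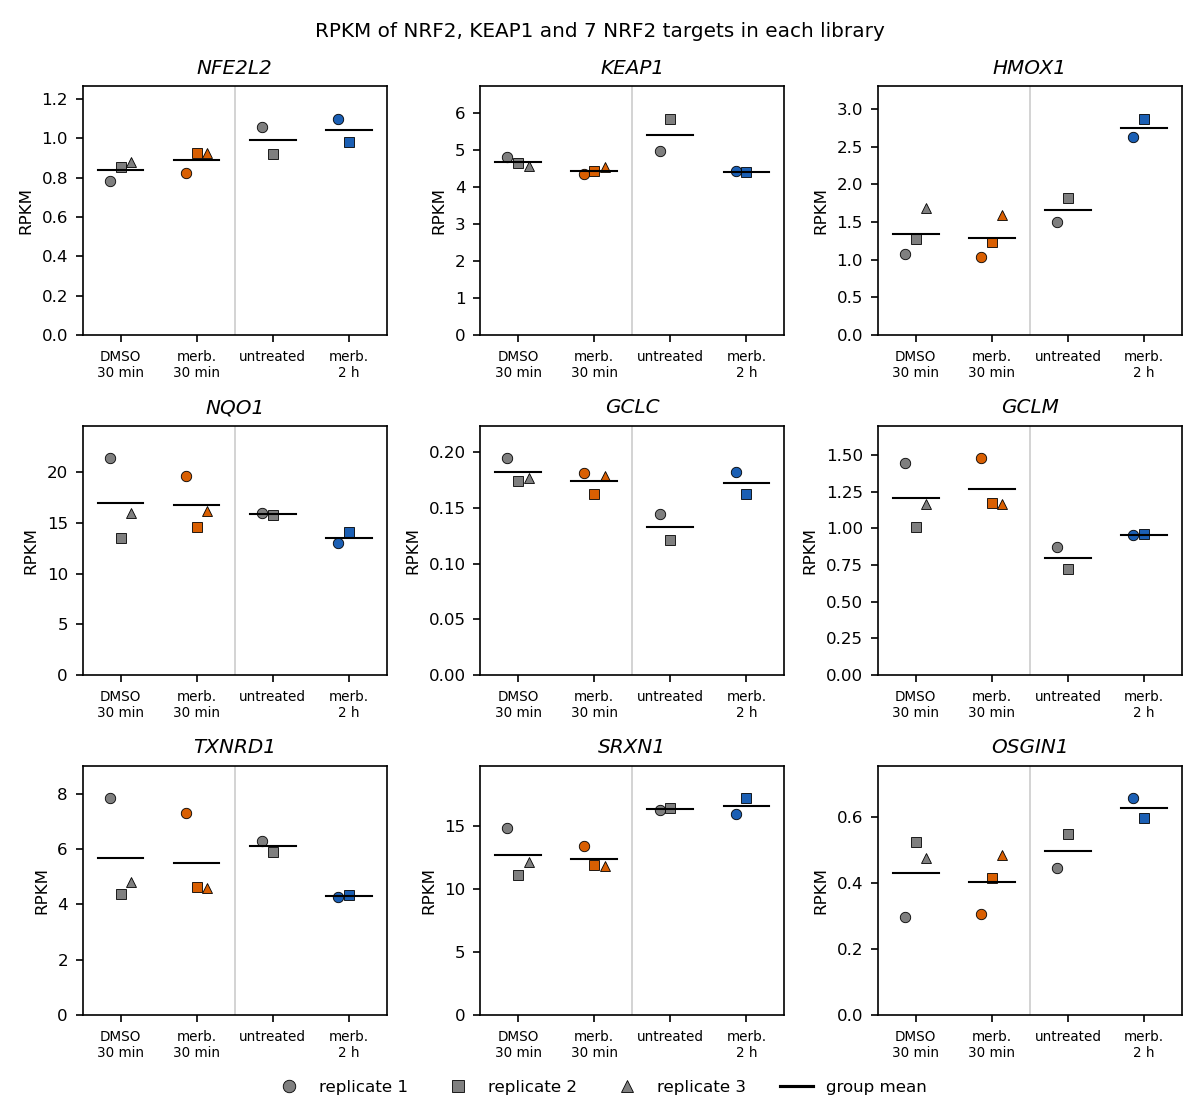
Deposited RPKM (vertical axes, each from 0) of the 9 genes in each of the 10 libraries, by group, with marker shape for the replicate number and a bar for the group mean. Both 2 h merbarone libraries lie above every other library for HMOX1 (2.62 and 2.87 RPKM) and below every other library for TXNRD1 (4.25 and 4.36 RPKM).

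The 30 min comparison asked for early changes against vehicle. No member was called at 30 min: limma on log2(RPKM + 1), with Benjamini-Hochberg adjustment over 6500 genes, called 0 of the 6 members that reached a mean of 1 RPKM, where 0.0154% of all genes were called. None of the 6 had an unadjusted p under 0.05. The same was so of all 9 on the recovered reads with limma's voom, which called 0.00714% of 14012 genes. With the replicate number as a block, 0 members were called in either fit, where 0.123% of the 6500 genes were called in limma and 0.0928% of the 14012 in voom. In voom with the block, NFE2L2 came nearest, with an unadjusted p of 0.0549 and an adjusted p of 1.00.

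NFE2L2 measured 0.781, 0.856 and 0.882 RPKM in DMSO and 0.823, 0.927 and 0.928 RPKM after 30 min of merbarone. Each merbarone library lay above the DMSO library of its own number, at 1.05 to 1.08 times its level, but the groups overlapped. The voom log2 fold change was 0.09 with a 95% confidence interval from -0.10 to 0.28. KEAP1, the inhibitor, measured 4.80, 4.64 and 4.57 RPKM in DMSO and 4.36, 4.42 and 4.53 RPKM after merbarone. All 3 treated libraries were below all 3 controls, as in 1.40% of the genes tested (groups that do not overlap in either direction made up 2.28%), and the log2 fold change was -0.06 ± 0.05 (SE).

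HMOX1 measured 1.07, 1.27 and 1.69 RPKM in DMSO and 1.03, 1.24 and 1.59 RPKM after 30 min of merbarone. The levels followed the replicate number rather than the drug, with replicate 3 highest and replicate 1 lowest in both groups. NQO1 measured 21.4, 13.6 and 16.0 RPKM in DMSO and 19.7, 14.6 and 16.2 RPKM after merbarone, again in the same order in both groups. TXNRD1 measured 7.84, 4.39 and 4.79 RPKM in DMSO and 7.30, 4.62 and 4.59 RPKM after merbarone, with replicate 1 high in both. The log2 fold changes of HMOX1, NQO1 and TXNRD1 were -0.03, -0.0012 and -0.03.

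Their 95% confidence intervals show how little this comparison can separate. That of TXNRD1 ran from -0.60 to 0.54, that of NQO1 from -0.43 to 0.43 and that of HMOX1 from -0.33 to 0.26. With the block they narrowed to -0.13 to 0.08, -0.13 to 0.13 and -0.10 to 0.03 respectively. SRXN1 (11.1 to 14.9 RPKM over the 6 libraries), GCLM (1.01 to 1.48 RPKM), GCLC (0.163 to 0.195 RPKM) and OSGIN1 (0.295 to 0.523 RPKM) also had overlapping groups.

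For 8 of the 9 genes replicate 1 differed more from the other replicates in this experiment than merbarone from DMSO within any same-numbered pair. Both replicate 1 libraries were above the other 4 libraries for NQO1, GCLC, GCLM, TXNRD1 and SRXN1, and below the other 4 for NFE2L2, HMOX1 and OSGIN1. Only KEAP1 overlapped, of the 9. The mean of replicate 1 was 1.65 times that of the other libraries for TXNRD1, 1.36 times for NQO1, 1.30 times for GCLM, 0.727 times for HMOX1 and 0.634 times for OSGIN1. This was common across the tables, since 22.5% of 6500 genes had both replicate 1 libraries above the others and 33.5% had both below. For TXNRD1 the log2 ratio of replicate 1 to the others was 0.72, while its largest difference within a same-numbered pair was 0.10. Leaving out replicate 1 of both groups, a check chosen after the data were seen, also called 0 members at 30 min.

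**Figure D2:**
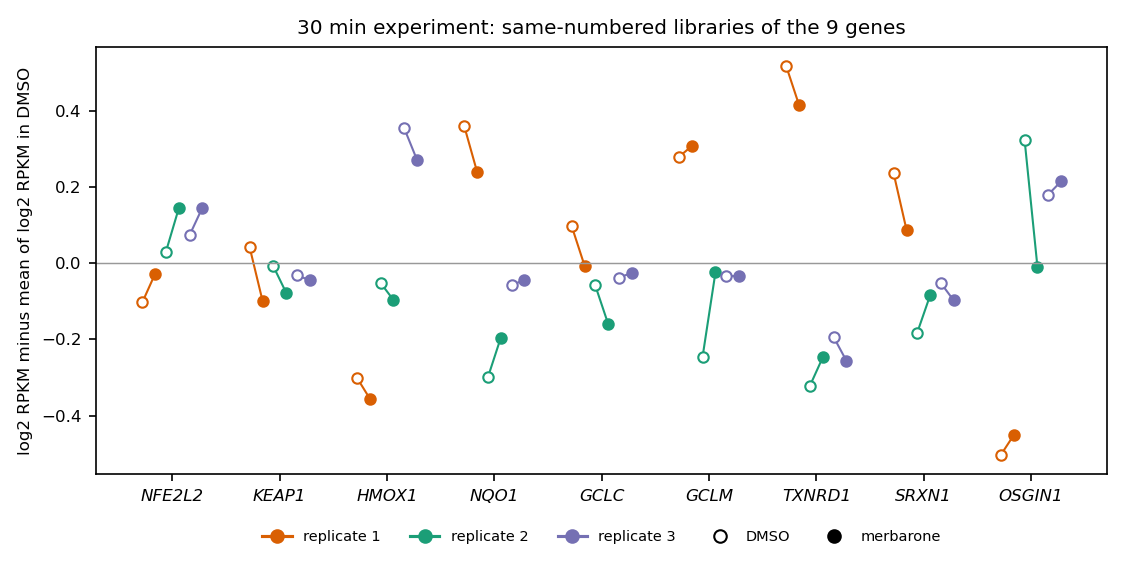
Same-numbered DMSO (open) and 30 min merbarone (filled) libraries for each of the 9 genes, as log2 RPKM minus the mean log2 RPKM of the 3 DMSO libraries; colours mark replicate numbers. For TXNRD1 both replicate 1 libraries (7.84 and 7.30 RPKM) stand well above the other 4 (4.39 to 4.79 RPKM), a larger gap than any between DMSO and merbarone.

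The 2 h comparison set cells given merbarone for 2 h against untreated cells, which had received no vehicle. In all 2 h results, here and on the pathway lists below, effects of the drug and of any vehicle given with it cannot be told apart. HMOX1 rose and TXNRD1 fell, and no other member passed the test. Limma tested 6 of the 9 genes at the filter of 1 RPKM and called these 2, where 13.1% of 6620 genes were called, 5.98% higher and 7.10% lower. On the recovered reads all 9 could be tested, and the same 2 were called, where 14.0% of 13440 genes were called. The members called went in opposite directions. The median log2 fold change of the 6 tested was -0.10, against -0.05 over all genes, and that of all 9 in voom was 0.07, against 0.00027 over all genes.

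HMOX1, whose enzyme breaks down haem to biliverdin, iron and carbon monoxide, measured 1.51 and 1.82 RPKM in untreated cells and 2.62 and 2.87 RPKM after 2 h of merbarone. Both treated libraries were above both controls, and above all 6 libraries of the 30 min experiment. The mean rose by 65.5%, from 1.66 ± 0.220 to 2.75 ± 0.175 RPKM (SD, n = 2), on 278 to 519 reads per library. Limma put the log2 fold change at 0.50 ± 0.09 (SE; adjusted p 0.00780). On the recovered reads, which are not compressed by the added 1 RPKM, voom gave 0.73 ± 0.14 (SE; adjusted p 0.00148). HMOX1 (ENSG00000100292) lies on GRCh37 chromosome 22, 35776354 to 35790207, plus strand, and overlapped no other gene of the tables. The call was kept in each of the 4 fits that left out 1 library, where the lone library of a group is assumed to vary like the other group, but not without the filter on low values (adjusted p 0.117) or with all 10 libraries in 1 fit (0.0537).

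TXNRD1, which uses NADPH to keep thioredoxin reduced, measured 6.29 and 5.91 RPKM in untreated cells and 4.25 and 4.36 RPKM after 2 h. Both treated libraries were below both controls. The mean fell by 29.4%, from 6.10 ± 0.262 to 4.31 ± 0.0733 RPKM (SD, n = 2), on 7644 to 11268 reads per library. Limma put the log2 fold change at -0.42 ± 0.09 (SE; adjusted p 0.0156), and voom on the recovered reads at -0.50 ± 0.09 (SE; adjusted p 0.00118). TXNRD1 (ENSG00000198431; GRCh37 chromosome 12, 104609557 to 104744085, plus strand) overlaps EID3 by the annotation used, so part of its reads is uncertain. The windows printed above belong to 2 of its starts, and the deposited values do not separate transcripts from them.

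The fall of TXNRD1 was smaller than the spread of the gene between libraries of the 30 min experiment, which ran from 4.39 to 7.84 RPKM. Its call was lost without 2 h merbarone replicate 1 (adjusted p 0.158) and without 2 h merbarone replicate 2 (0.101). It was lost with all 10 libraries in 1 fit (0.298) and without the filter on low values (0.0971).

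NQO1, which reduces quinones in a single hydride step, measured 16.0 and 15.8 RPKM in untreated cells and 13.0 and 14.1 RPKM after 2 h. Both treated libraries were lower, by 14.8% in the mean, and limma gave -0.22 ± 0.10 (log2, SE; adjusted p 0.173). KEAP1 measured 4.97 and 5.85 RPKM in untreated cells and 4.42 and 4.40 RPKM after 2 h. It too was lower in both treated libraries, at -0.24 ± 0.10 (log2, SE; adjusted p 0.126) in limma, and was called without untreated replicate 1 (adjusted p 0.00534), a fit whose spread comes from the 2 treated libraries and which called 2464 genes. Non-overlapping groups were common at 2 h, at 61.5% of the genes tested and 4 of the 6 members tested.

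NFE2L2 measured 1.06 and 0.922 RPKM in untreated cells and 1.10 and 0.979 RPKM after 2 h, with overlapping groups. Its log2 fold change was 0.04, with a 95% confidence interval from -0.12 to 0.19. NFE2L2 (ENSG00000116044; GRCh37 chromosome 2, 178083395 to 178257484, minus strand) overlaps AGPS and HNRNPA3 by the annotation used, and its value is uncertain to that extent. SRXN1 measured 16.3 and 16.4 RPKM in untreated cells and 16.0 and 17.2 RPKM after 2 h, a log2 fold change of 0.02 with an interval from -0.21 to 0.24. It shares its strand with an overlapping gene known by identifier only, so its reads may be split with that gene.

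The remaining 3 targets were below the filter of 1 RPKM at 2 h, and their tests come from the recovered reads. GCLC measured 0.144 and 0.122 RPKM in untreated cells and 0.182 and 0.163 RPKM after 2 h, on 174 to 298 reads. Both treated libraries were higher, and voom gave 0.37 (log2) with a 95% confidence interval from 0.05 to 0.70 (adjusted p 0.116). GCLM measured 0.871 and 0.725 RPKM in untreated cells and 0.953 and 0.960 RPKM after 2 h, a voom value of 0.26 (log2, adjusted p 0.252).

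OSGIN1 measured 0.445 and 0.546 RPKM in untreated cells and 0.655 and 0.595 RPKM after 2 h, on 107 to 162 reads, the fewest of the 9. Its voom log2 fold change was 0.35 with an interval from -0.04 to 0.73 and an adjusted p of 0.227. By the annotation used it spans 35022 bp and overlaps MLYCD, but its deposited values rest on 18051 bp. Whether the overlap touches its reads is therefore not known. All 3 targets were higher in both treated libraries, as were 28.8% of the 13440 genes of the voom fit, without passing the test, and of the 9 genes only HMOX1 was called higher, in limma and in voom.

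**Figure D3:**
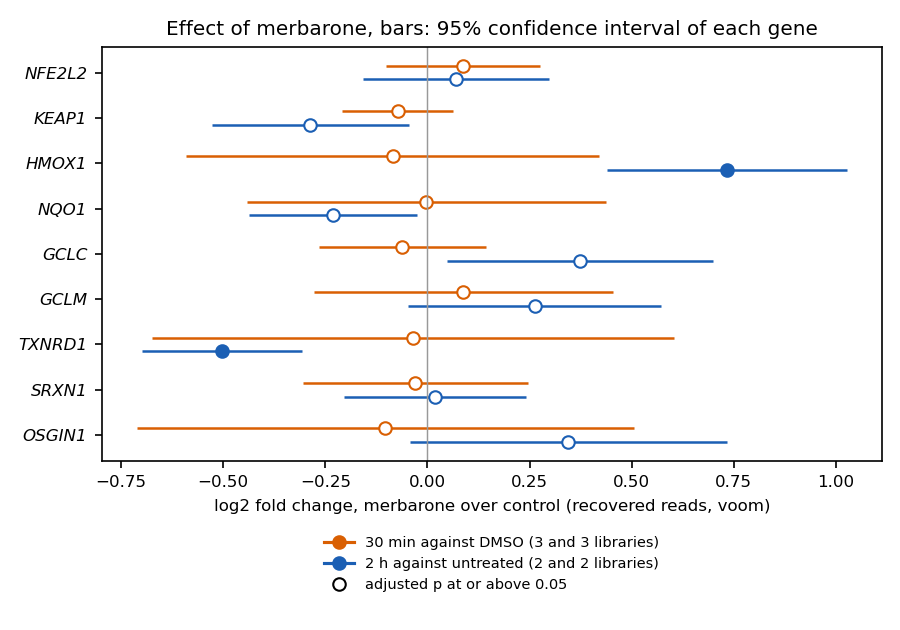
Log2 fold change of merbarone over control from voom on recovered reads (horizontal axis) for the 9 genes, with bars for each gene's 95% confidence interval, in both comparisons. At 2 h HMOX1 (0.73) and TXNRD1 (-0.50) carry filled points, which mark an adjusted p under 0.05; the open points, all those at 30 min included, did not pass.

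The effects of the 2 experiments were compared by a contrast over all 10 libraries, in which drug exposure time, vehicle and experiment changed together and cannot be told apart. Without the block 0 of 6 members passed, where 1.63% of 6558 genes did. The effect on HMOX1 was 0.53 ± 0.18 (SE) larger at 2 h on the log2 scale, with an adjusted p of 0.191, and that on TXNRD1 was lower, at -0.39 ± 0.31 (SE), with an adjusted p of 0.601. Same-numbered libraries deviated together in the 30 min experiment but were not taken as pairs at 2 h. With the replicate number as a block in the 30 min experiment only, a fit chosen after the data were seen, both differences passed. The adjusted p-values were then 0.00697 for HMOX1 and 0.0212 for TXNRD1 in limma, where 10.1% of genes passed. On recovered reads with the same block they were 0.00471 and 0.00606, where 8.20% of 13900 genes passed, and no other member passed.

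The experiments also differed in level for some members, in control and treated libraries alike. SRXN1 was higher in the 4 libraries of the 2 h experiment (16.0 to 17.2 RPKM) than in the 6 of the other (11.1 to 14.9 RPKM). GCLM was lower in those 4 (0.725 to 0.960 RPKM) than in the 6 (1.01 to 1.48 RPKM). How many of all genes separate the experiments in this way was not counted, so the separation is not shown to be particular to these members. Depth and the kind of control differed between the experiments as well, and their part in these differences was not tested.

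Other genes of the pathway were taken from 7 lists with 64 genes, written with earlier results of these data known. Counts of calls on the lists therefore describe these genes and are not a test of the pathway. Of the 64 genes, 62 were matched by identifier. TXNIP and SOD2 were not matched and were not analysed here. At 30 min 0 of 39 tested list genes were called. At 2 h limma tested 38 of them and called 12, 5 higher and 7 lower, against 13.1% of all genes, with a median log2 fold change of -0.15 against -0.05 over all genes. The voom fit on recovered reads tested 56 and called 18, 9 higher and 9 lower, against 14.0% of all genes.

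Among the regulators, the small MAF genes, whose proteins pair with NRF2 or BACH1 on DNA, all rose at 2 h. MAFF went from 1.60 and 2.14 RPKM to 2.98 and 3.60 RPKM, a limma log2 fold change of 0.58 (adjusted p 0.0114). MAFK had a log2 fold change of 0.49 and MAFG one of 0.38, with adjusted p-values of 0.0335 and 0.0404. In limma, where 13.1% of all genes were called, these were the 3 called genes of 6 tested on this list. The levels of NFE2L1, a relative of NRF2, and SQSTM1, an autophagy receptor that binds KEAP1, differed by -0.05 and 0.02 on the log2 scale and were not called. BACH1, named after its values were seen because it represses HMOX1, was below the filter and was called on recovered reads, at 0.38 (log2, adjusted p 0.0238). MAFF and MAFK were not called with all 10 libraries in 1 fit (adjusted p 0.0628 and 0.0925). In limma without the filter on low values MAFF, MAFK and MAFG were not called, nor was BACH1 (adjusted p 0.151). MAFK lost its call without 2 h merbarone replicate 2 (adjusted p 0.153), and MAFG without replicate 1 (0.175) or 2 (0.376).

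On the thioredoxin list, TXN and PRDX1 fell like TXNRD1. TXN, thioredoxin itself, fell from 7.02 and 7.23 RPKM to 4.63 and 4.64 RPKM, a log2 fold change of -0.53 with an adjusted p of 0.00578. PRDX1, a peroxiredoxin that thioredoxin reduces, fell from 26.2 and 26.1 RPKM to 15.9 and 18.1 RPKM, a log2 fold change of -0.59 with an adjusted p of 0.00978. Of the 8 tested genes of this list 2 were called lower and 1, SESN2, higher, where 13.1% of all genes were called in either direction. SESN2, a sestrin that restrains mTORC1 and is also induced by the amino acid response, had a log2 fold change of 2.05. PRDX5 and PRDX2, the most abundant of the list, stood at -0.32 and -0.16 (log2) without being called. PRDX1 was not called without 2 h merbarone replicate 1 (adjusted p 0.132).

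On the detoxification list 3 reductases fell. CBR1 and CBR3, carbonyl reductases, had log2 fold changes of -0.50 and -0.38 with adjusted p-values of 0.0226 and 0.0127, and AKR1B1, aldose reductase, had -0.39 with 0.0240. Of 5 tested genes on this list 3 were called, all lower, where 7.1% of all genes were called lower. UGDH, with -0.10, was not called. SOD1, the cytosolic superoxide dismutase, had a log2 fold change of -0.37 with an adjusted p of 0.0398, and CAT, catalase, had -0.31 with 0.0173. Each of these 5 genes kept its direction but not its call when either 2 h merbarone replicate was left out.

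On the glutathione list limma called 1 of 7 tested genes, a share near the 13.1% called over all genes. The called gene was CHAC1, which breaks glutathione down and is a target of the amino acid response, at 4.25 (log2, adjusted p 1.30e-07). GSTP1 and GPX4, the most abundant of the list, had -0.33 and -0.10 and were not called. In voom on recovered reads, where 14.0% of all genes were called, 3 of 14 tested genes of the list were called, all higher. Besides CHAC1 these were ABCC3, at 0.62 (log2, adjusted p 0.00861), and ABCC1, at 0.33 (0.0442). Both were below the filter and are named after their values were seen. Limma without the filter on low values did not call ABCC3 (adjusted p 0.156) or ABCC1 (0.209). Of the genes for NADPH supply 0 of 5 were called, with TKT at 0.16. Of the haem and iron genes 0 of 5 were called, with FTL at -0.25 and FTH1 at -0.15. On recovered reads, where 14.0% of all genes were called, 3 of the 8 genes of this list were called. These 3 are named after their values were seen. SLC40A1, the iron exporter, was lower at -0.79 (log2, adjusted p 0.00130), and BLVRA, a biliverdin reductase, was lower at -0.43 (0.0289). TFRC, the transferrin receptor that takes up iron, was higher at 0.38 (0.0339). Limma also tested TFRC, at 0.29 (log2, adjusted p 0.0943), and did not call it. SLC40A1 and BLVRA were not called in limma without the filter on low values (adjusted p 0.103 and 0.193).

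**Figure D4:**
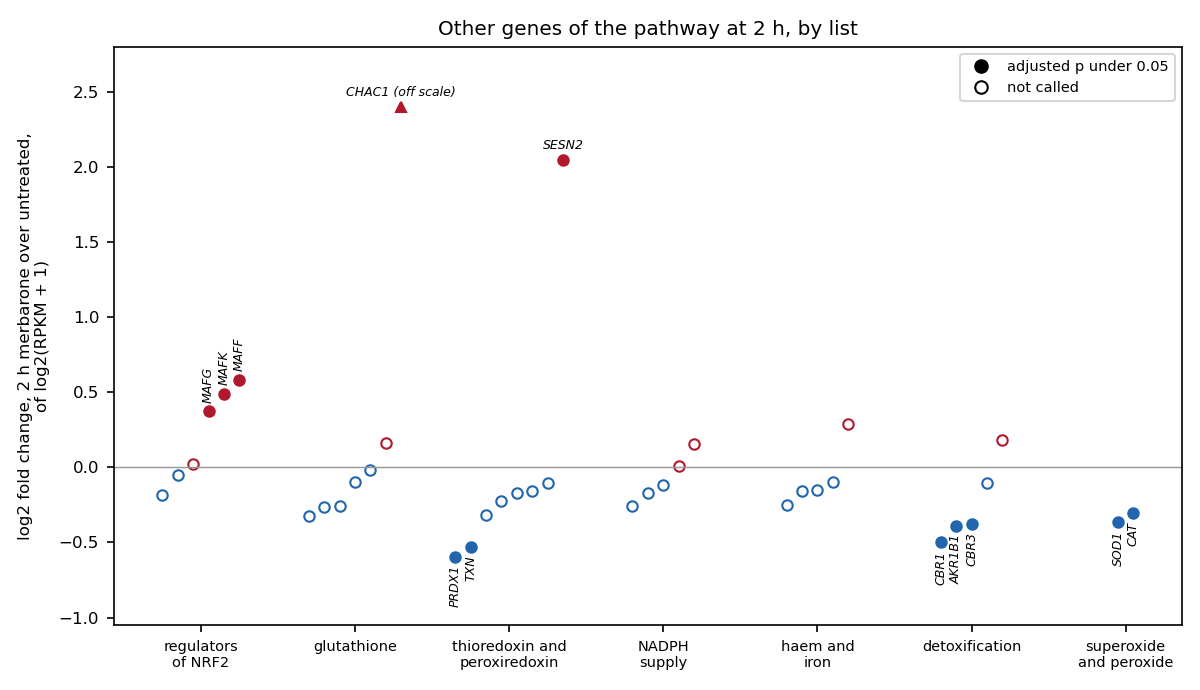
Log2 fold change at 2 h of log2(RPKM + 1) (vertical axis) for the 38 other pathway genes tested, by list; filled points have an adjusted p under 0.05 in limma and carry names, and CHAC1 (4.25) is a triangle at the upper edge, off scale. The 3 small MAF genes lie above 0, while the called genes of the thioredoxin list other than SESN2, of the detoxification list and of the superoxide and peroxide list lie below it.

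HMOX1 had the largest absolute 2 h change of the members tested, and the genes most like it were sought over the 10 libraries. Values were taken as log2(RPKM + 1) minus the mean of the same experiment's controls, among 6558 genes. The 5 with the highest Pearson correlation were MSC (0.980), NFKBIL1 (0.962), SHMT2 (0.949), SIK1 (0.945) and NR1D1 (0.942). HMOX1 stands out in this profile by its 2 h rise, so genes chosen for likeness to it also rose at 2 h, with log2 fold changes of 1.51, 0.33, 0.64, 0.81 and 1.12. The libraries share depth and experiment, so these values describe likeness only, and none of the 5 is on the pathway lists.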

How the data were processed

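RNA was sequenced in 10 TruSeq Stranded mRNA libraries, each from 150 ng of total RNA, per the labels' protocols. The authors deposited 1 table of RPKM per library and Ensembl gene, per the file headers, and the values are not log transformed. The submitters' processing notes name Bowtie 1.2.0, edgeR, DESeq2, deepTools 2.4.1 and the builds hg19 and GRCh37 without their roles; the annotation release and strand setting are not given in the sources used here. Coordinates come from a GRCh37 annotation. Lengths implied by the values were within 1% of the gene's span for 74.9% of 17234 genes.

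Whole reads were recovered for 17680 of 17680 genes above 0 (tolerance 0.0001 reads). The reads summed over genes and the library totals implied by the steps differed by at most 0.0455%. Tests used limma 3.58.1 (R 4.3.3) on log2(RPKM + 1), lmFit and eBayes with trend, keeping genes whose mean reached 1 RPKM, two-sided, Benjamini-Hochberg over all genes, threshold 0.05. The scale understates changes of low genes. The alternative voom kept genes averaging 10 reads or more. The recovery of reads and the fits were tested on simulated data. Python 3.11.15 was used.

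Same-numbered libraries deviated together at 30 min (correlations 0.924, 0.652 and 0.605), so the numbers were taken as pairs there from the data. The mean of differently numbered libraries was -0.343, which follows largely from centring on group means and is not separate evidence. At 2 h, with 2 libraries per group, both pairs give the same single value, 0.314, and the numbers were not taken as pairs. The members and lists were chosen with earlier results of these data known. Named pathway genes were, per list, those called (at most 4) and the 2 highest in mean RPKM; 1 gene that this rule names is not reported here; likeness was computed for the member with the largest 2 h change. Alternatives were other pseudocounts, filters and scalings, the replicate block, 1 fit of all libraries and leaving out libraries.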

Additional observations from a re-analysis of the deposited data

Results flagged for a closer look

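The effect of merbarone on HMOX1 differed between the experiments by 0.53 on the log2 scale, larger at 2 h, with the replicate number as a block in the 30 min experiment only (limma adjusted p 0.00697), a fit chosen after the data were seen. It did not pass without a block (0.191). The effect on TXNRD1 differed by -0.39 with the same block (0.0212), lower at 2 h, and did not pass without it (0.601). Both were picked out because the difference itself was tested. Exposure time, vehicle and experiment changed together in this contrast and cannot be told apart.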

How the results depend on the processing

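HMOX1, TXNRD1, KEAP1 and NQO1 kept their direction at 2 h under all 13 or 14 alternatives run for them. NFE2L2, with 11 alternatives, and SRXN1, with 14, did not. GCLC, GCLM and OSGIN1 also kept theirs, but had only 2 alternatives each, with no library left out, so their stability is not comparable. The cause of lost calls was not tested. Genes called at 30 min numbered 1, and 0 without the filter, 2 with a filter of 5 RPKM, with median scaling, with quantile normalization or with all 10 libraries in 1 fit, 8 with the replicate block, 13 with voom and the block, and 0 to 2 leaving out 1 library. At 2 h 866 became 53, 397 (filter of 5 RPKM), 2129 (block), 1886 (voom), 3487 (voom and block) and 328 to 2464 leaving out 1 library, the last without untreated replicate 1. Members called at 2 h, 2, became 0 without the filter, 1 at 5 RPKM and 0 with all 10 libraries in 1 fit. With the block in limma 3 of 6 were called, where 2129 of 6620 genes were called, and KEAP1 (adjusted p 0.0264) joined. With voom and the block 5 of 9 were called, where 3487 of 13440 genes were called. There KEAP1 (adjusted p 0.0186), NQO1 (0.0406) and GCLC (0.0322) joined. List genes called at 2 h, 12, became 1 without the filter, 7 at 5 RPKM, 22 with the block, 27 with voom and the block, and 5 to 25 leaving out 1 library, with 5 without either 2 h merbarone replicate. At 2 h the libraries share only a number (2 pairs). For the difference of effects 107 genes became 361 without the filter, 36 at 5 RPKM, 1255 with the block, 665 with it at 30 min only, 66 with voom, 2100 with voom and the block, 1140 with voom and the block at 30 min only, and 38 to 86 leaving out 1 library; members went from 0 to 2 with the block or with it at 30 min only (also in voom) and 3 with voom and the block, and list genes from 3 to 1 at 5 RPKM, to 15 and 23 with the block in limma and voom, and to 10 and 12 with it at 30 min only. Higher and lower calls at 2 h, 396 and 470, became 431 and 391 with median scaling and 422 and 362 with quantile normalization. Fits without 1 library take the spread of a lone library from the other groups.

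These values changed sign: NQO1 at 30 min was 0.0088 with median scaling, and at 2 h NFE2L2 was -0.0023 and NFE2L1 0.025 with quantile normalization. Leaving out 1 library gave at 30 min HMOX1 -0.13 to 0.068, NQO1 -0.14 to 0.17, GCLM -0.023 to 0.12, TXNRD1 -0.22 to 0.19 and SRXN1 -0.12 to 0.078, and at 2 h NFE2L2 -0.014 to 0.085, SRXN1 -0.033 to 0.069, NFE2L1 -0.13 to 0.030, SQSTM1 -0.066 to 0.11 and GPX4 -0.35 to 0.15. The SRXN1 difference ran from -0.061 to 0.13. Without replicate 1 of both 30 min groups, a check chosen after seeing the data, NQO1, TXNRD1 and SRXN1 at 30 min were 0.056, 0.0048 and 0.023, the SRXN1 difference was -0.0055, and 114 genes differed in effect. With 107 to 162 reads at 2 h, OSGIN1 is the member most limited by depth.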
